A study of Mus musculus with 6 samples.

Results

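The MS4A genes encode small proteins that cross the membrane 4 times. The 6 described here are a chosen set among those that myeloid cells express: Ms4a4a, Ms4a4c, Ms4a6b, Ms4a6c, Ms4a6d and Ms4a7. They were chosen by symbol, through their Ensembl identifiers in GENCODE on the GRCm38 mouse genome, and make up 6 of the 55487 genes counted in every library. Each of the 6 was found in all 6 libraries and passed the filter on low counts. MS4A proteins sit in the plasma or endosomal membrane and mostly act beside other receptors rather than by binding a ligand of their own. The best known are CD20 (Ms4a1) on B cells and the beta chain of the IgE receptor (Ms4a2) on mast cells. In macrophages Ms4a4a associates with the beta-glucan receptor dectin-1, and Ms4a7 is a widely used transcript marker of mature macrophages.

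The study sequenced total RNA of macrophages sorted from Lewis lung carcinoma, a mouse lung cancer line that can be transplanted; C57BL/6 mice carried it under the skin, and tumours were collected from day 15 to day 17. All sorted cells carried CD11b and F4/80 and lacked Ly6C and Ly-6G. They were divided by surface MHC class II, which gave 3 libraries with the label MHC-II high and 3 with the label MHC-II low, numbered by batch (1 to 3) within a label. The age of the mice and any pooling of animals are not given in the labels, and no label ties a library to a mouse of its own. The p-values thus measure the spread between libraries, and that spread may be technical.

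The labels have to be read with care. MHC class II transcripts were far lower in all 3 libraries carrying the label high than in all 3 carrying the label low. H2-Aa lay between 4.39 and 6.68 CPM (counts scaled to a common library size) in the former and between 1164 and 1504 CPM in the latter. H2-Ab1, H2-Eb1 and Cd74, of the same pathway, went the same way, and these 4 genes were called lower in the libraries labelled high. They were not absent there, with H2-Ab1 at 25 to 26.5 CPM and Cd74 at 26.1 to 35.9 CPM. A direction below is therefore that of the label on the library, "labelled high" or "labelled low", and not that of MHC class II itself. The macrophage genes Adgre1 (F4/80), Itgam (CD11b) and Csf1r were expressed in every library, and Ly6g, the gene of the excluded granulocyte marker, had no read in any. Reads in genes ranged from 10202879 to 25473051 a library. The third library labelled low stands apart: 47.3% of its reads in genes came from a single ribosomal RNA copy, against 3.85% to 13.5% elsewhere, and 4669283 of its reads lay outside ribosomal and mitochondrial genes, against 11670849 to 17982808.

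The 6 genes lie within 1 family cluster on chromosome 19, all on GRCm38 and all protein-coding. Ms4a7 (ENSMUSG00000024672) runs from 11321039 to 11336146 on the minus strand. Ms4a4a (ENSMUSG00000101389) follows at 11375523 to 11392790 on the plus strand, and Ms4a4c (ENSMUSG00000024675) at 11404770 to 11427246 on the plus strand. The Ms4a6 genes come after them, with Ms4a6c (ENSMUSG00000079419) at 11469366 to 11482192 and Ms4a6b (ENSMUSG00000024677) at 11516512 to 11531256, both on the plus strand. Ms4a6d (ENSMUSG00000024679) lies at 11586604 to 11604849 on the minus strand. The Ms4a6 genes are close copies of each other and Ms4a4c is a close copy of its neighbour Ms4a4b, so a first question is whether a read can be told to belong to 1 of them.

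Coding sequences of the 6 genes were aligned in pairs (the longest coding sequence of each gene in GENCODE M21). Ms4a6b and Ms4a6d were identical over 79.8% of the alignment, Ms4a6b and Ms4a6c over 74%, and Ms4a6c and Ms4a6d over 66.8%. Ms4a4a and Ms4a4c, in spite of their names, matched over 59.6%, with no identical run beyond 16 bases. Ms4a4c had a far closer relative outside the 6, Ms4a4b, a gene of T cells, at 91.7%. Ms4a7 matched the other 5 over 45.5% to 51.1%, with identical runs of at most 12 bases. The longest identical coding run among the 6 genes and the one between Ms4a4c and Ms4a4b are shown here, 5′ to 3′ on the coding strand, because a read that falls wholly inside such a run cannot be assigned to 1 gene. Capitals mark the identical run and lower case the 15 coding bases on either side.
Ms4a6b: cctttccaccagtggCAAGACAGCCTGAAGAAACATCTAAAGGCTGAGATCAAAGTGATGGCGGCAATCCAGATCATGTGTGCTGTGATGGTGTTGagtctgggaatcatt
Ms4a6d: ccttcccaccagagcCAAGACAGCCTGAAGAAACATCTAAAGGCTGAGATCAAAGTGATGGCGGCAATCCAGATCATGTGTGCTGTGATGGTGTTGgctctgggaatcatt
Ms4a4c: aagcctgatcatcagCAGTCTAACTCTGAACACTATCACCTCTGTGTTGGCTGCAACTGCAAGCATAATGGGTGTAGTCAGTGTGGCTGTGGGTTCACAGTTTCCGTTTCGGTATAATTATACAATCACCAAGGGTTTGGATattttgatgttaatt
Ms4a4b: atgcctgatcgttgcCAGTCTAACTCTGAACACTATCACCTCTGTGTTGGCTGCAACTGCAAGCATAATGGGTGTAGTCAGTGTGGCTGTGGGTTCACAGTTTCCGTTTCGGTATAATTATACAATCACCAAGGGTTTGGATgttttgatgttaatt

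The Ms4a6 run is 81 bases long and spans an exon border in both genes, 48 bases in the upstream exon (chr19:11520438-11520485 in Ms4a6b, chr19:11603146-11603193 in Ms4a6d) and 33 in the next (chr19:11521671-11521703 and chr19:11601932-11601964). It covers coding bases 100 to 180 of both, early in the protein. The Ms4a4 run is 127 bases long, of which 118 lie in 1 exon (chr19:11419001-11419118 in Ms4a4c, chr19:11459161-11459278 in Ms4a4b). Outside these runs the genes differ often enough for most reads to be placed. Of all stretches of 75 bases in the exons of a gene, those also found in a gene elsewhere made up 0% for Ms4a7 and Ms4a4a, 0.408% for Ms4a6d, 0.632% for Ms4a6b, 2.88% for Ms4a6c and 3.78% for Ms4a4c. At 50 bases the highest shares were 11.1% for Ms4a6c and 8.19% for Ms4a4c, and at 100 bases they were 0.513% and 1.66%. All 66 shared 75-base stretches of Ms4a4c were shared with Ms4a4b. Of the Ms4a6 genes, Ms4a6d shared 7 with Ms4a6b, within the printed run, while 22 of the 29 of Ms4a6b were shared with Ms4a6c and 35 of the 57 of Ms4a6c with Prdm11, a gene outside the family. The read length is not given in the sources used here. Reads aligned to several places were listed apart in the deposited tables and enter no gene, so sharing of this kind takes reads away from a gene instead of moving them to a relative.

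Ms4a6c has a second limit. A processed transcript on the opposite strand, BE692007, covers 47.7% of its 75-base stretches. BE692007 itself held 71 reads over the 6 libraries, against 19428 for Ms4a6c. The libraries were stranded, but the strand setting of the counting is not given in the sources used here. If strand was not used, reads in the overlap would count as ambiguous and Ms4a6c would be underestimated, and reads of the gene and of its antisense partner could not be told apart.

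The Ms4a4 genes had lower means in the libraries labelled high. Ms4a4c, which interferon induces in myeloid cells, stood at 3.61, 5.12 and 8.03 CPM in replicates 1, 2 and 3 labelled high and at 11.4, 17.6 and 10.2 CPM under the label low. Every library labelled low was above every library labelled high. The means were 5.59 ± 2.25 and 13.1 ± 3.95 CPM (SD, n = 3 each), a 2.34-fold higher mean in the libraries labelled low. The log2 fold change of labelled high over labelled low was -1.23, with a standard error (SE) of 0.35. It did not pass the threshold of 0.05 (edgeR quasi-likelihood test, Benjamini-Hochberg adjusted p = 0.248 over 14140 genes, unadjusted p = 0.00775). These values rest on 57 to 430 reads a library. Within batches 1, 2 and 3 the log2 ratio was -1.65, -1.77 and -0.34.

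Ms4a4a, the partner of dectin-1, stood at 25.1, 39.1 and 43.2 CPM under the label high and at 47.7, 67.3 and 42.2 CPM under the label low. The groups overlapped, since the third library labelled low was below the third labelled high. The means were 35.8 ± 9.53 and 52.4 ± 13.2 CPM (SD, n = 3 each), and the log2 fold change was -0.55 with an SE of 0.27 (edgeR adjusted p = 0.434). Batches 1 and 2 gave log2 ratios of -0.93 and -0.78, and batch 3 gave 0.03.

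**Figure D1:**
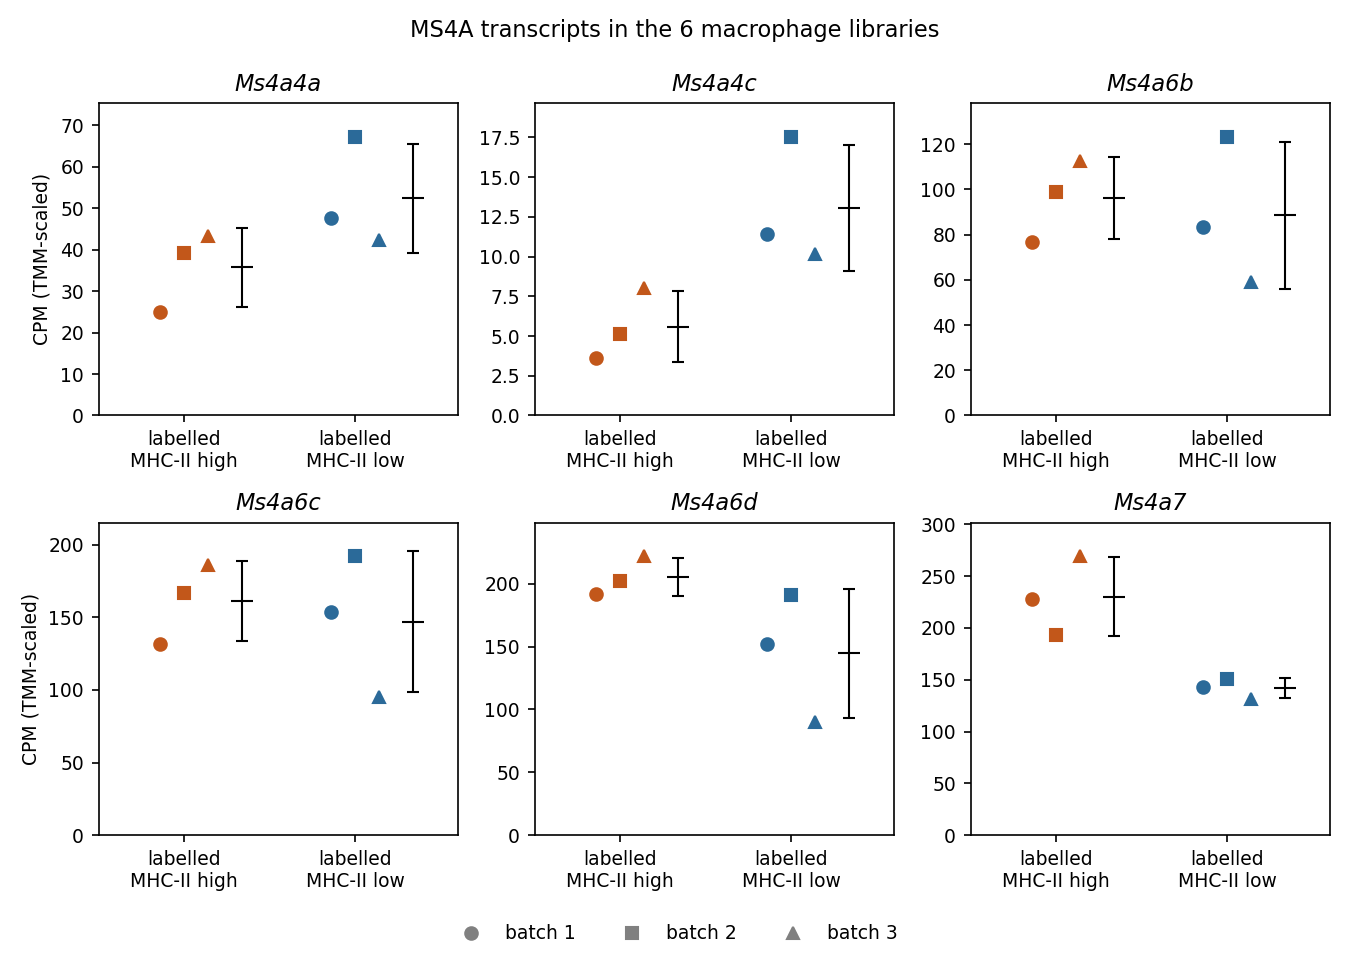
CPM on TMM-scaled library sizes (vertical axes from 0, a separate scale for each gene) of the 6 genes in each library. Points are libraries, with the marker giving the batch, and black ticks and bars are the mean ± SD of 3. All libraries labelled low lie above all labelled high for Ms4a4c, and below them for Ms4a6d and Ms4a7. The third library labelled low is the lowest of the 6 for Ms4a6b, Ms4a6c, Ms4a6d and Ms4a7.

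Calls of both Ms4a4 genes changed with how the GC content of genes was treated, and that of Ms4a4c also with the filter on low counts. An alternative fit took each library's trend of CPM over GC content out before testing (a GC offset, by local regression). Under it Ms4a4c was lower in the libraries labelled high by a log2 fold change of -1.54 with an SE of 0.24 (edgeR adjusted p = 0.0151). Ms4a4a was lower too, at -0.76 with a standard error of 0.16 (edgeR adjusted p = 0.0484). This fit called 2 of the 6 genes and 2.52% of all 14140, with 1.05% higher and 1.48% lower in the libraries labelled high. Ms4a4a sits at the edge of the threshold: with a straight local fit in place of a curved one, only Ms4a4c of the 6 genes was called, where 2.52% of all genes were. With the trend taken out, Ms4a4a ranged from 25.1 to 37.7 CPM under the label high and from 50.5 to 58.4 in those labelled low. The groups then did not overlap, as was so for 10.3% of all genes in this direction and 13.9% in the other. The batch 3 ratios then became -0.63 for Ms4a4a and -1.35 for Ms4a4c. With the batch as a further term the adjusted p values from edgeR were 0.0126 for Ms4a4a and 0.00337 for Ms4a4c, in a fit that called 4.2% of genes. Over all 18 alternative settings the adjusted p ranged from 0.0126 to 0.857 for Ms4a4a and from 0.00337 to 0.847 for Ms4a4c.

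Ms4a6b and Ms4a6c, mouse counterparts of human MS4A6A, showed no separation by label. Ms4a6b, also known from T cells, stood at 76.6, 98.9 and 113 CPM under the label high and at 83.4, 123 and 59 CPM under the label low. The means were 96 ± 18.1 and 88.6 ± 32.5 CPM (SD, n = 3 each), with a log2 fold change of 0.11 and an SE of 0.28 (edgeR adjusted p = 0.849). Ms4a6c stood at 131, 167 and 186 CPM under the label high and at 153, 192 and 95.4 CPM under the label low. Its means were 161 ± 27.5 and 147 ± 48.6 CPM (SD, n = 3 each), with a log2 fold change of 0.13 and an SE of 0.27 (edgeR adjusted p = 0.808). The groups overlapped for both genes, and in both the highest and the lowest of the 6 libraries carried the label low. The sign of both fold changes rested on the third library labelled low: without it they were -0.11 for Ms4a6b and -0.10 for Ms4a6c.

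Ms4a6d, described in activated macrophages, stood at 192, 202 and 222 CPM in the libraries labelled high. In those labelled low it stood at 152, 191 and 89.8 CPM. The groups did not overlap, by a margin of less than 1 CPM between the first library labelled high (191.91) and the second labelled low (191.36). The means were 205 ± 15.2 and 145 ± 51.2 CPM (SD, n = 3 each), with a log2 fold change of 0.50 and an SE of 0.27 (edgeR adjusted p = 0.451). Without the third library labelled low the fold change was 0.26. Among the Ms4a6 genes, Ms4a6d was thus the one with the largest fold change, and it did not pass the test either.

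Ms4a7 had the higher mean in the libraries labelled high, unlike the Ms4a4 genes. It stood at 228, 193 and 269 CPM under the label high and at 143, 151 and 132 CPM under the label low. Every library labelled high was above every library labelled low. The means were 230 ± 38.1 and 142 ± 9.65 CPM (SD, n = 3 each), a 1.62-fold higher mean in the libraries labelled high. The log2 fold change was 0.70 with an SE of 0.18, and the test was not passed (edgeR adjusted p = 0.214, unadjusted p = 0.00505). The log2 ratio was 0.67, 0.36 and 1.03 in batches 1, 2 and 3. Leaving out the second library labelled low brought the adjusted p of edgeR to 0.0506, the lowest over 18 alternative settings, of which the highest was 0.847. With the GC trend taken out the fold change was 0.42 (edgeR adjusted p = 0.273) and the groups overlapped, at 173 to 228 CPM against 128 to 193 CPM.

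Over the 6 genes, edgeR called 0 at an adjusted p of 0.05, where it called 0.446% of all genes tested (13 genes or 0.0919% higher and 50 genes or 0.354% lower in the libraries labelled high). DESeq2 (2.24% of genes called), limma-voom (0.368%) and edgeR with the batch as a term (0.29%) also called 0 of the 6. With no filter on low counts edgeR called 2.02% of genes and 1 of the 6, Ms4a4c. At an unadjusted p under 0.05 edgeR had 2 of the 6, Ms4a4c and Ms4a7, against 12.1% of all genes. Groups that did not overlap in CPM were found for 3 of the 6 genes, Ms4a6d and Ms4a7 above and Ms4a4c below in the libraries labelled high. Over all genes tested, 10.5% had the libraries labelled high above all others and 9.48% below. The share of ribosomal RNA was highest in 2 of the libraries labelled low (13.5% and 47.3%) but did not follow the label, since the other library labelled low had 3.87%, within the 3.85% to 5.17% of those labelled high. The summed CPM of dendritic cell markers, mostly Itgax and given below, did not overlap between labels. The part of either in these differences was not tested. In bulk RNA, fewer cells that express a gene and less of its RNA in each cell cannot be told apart.

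**Figure D2:**
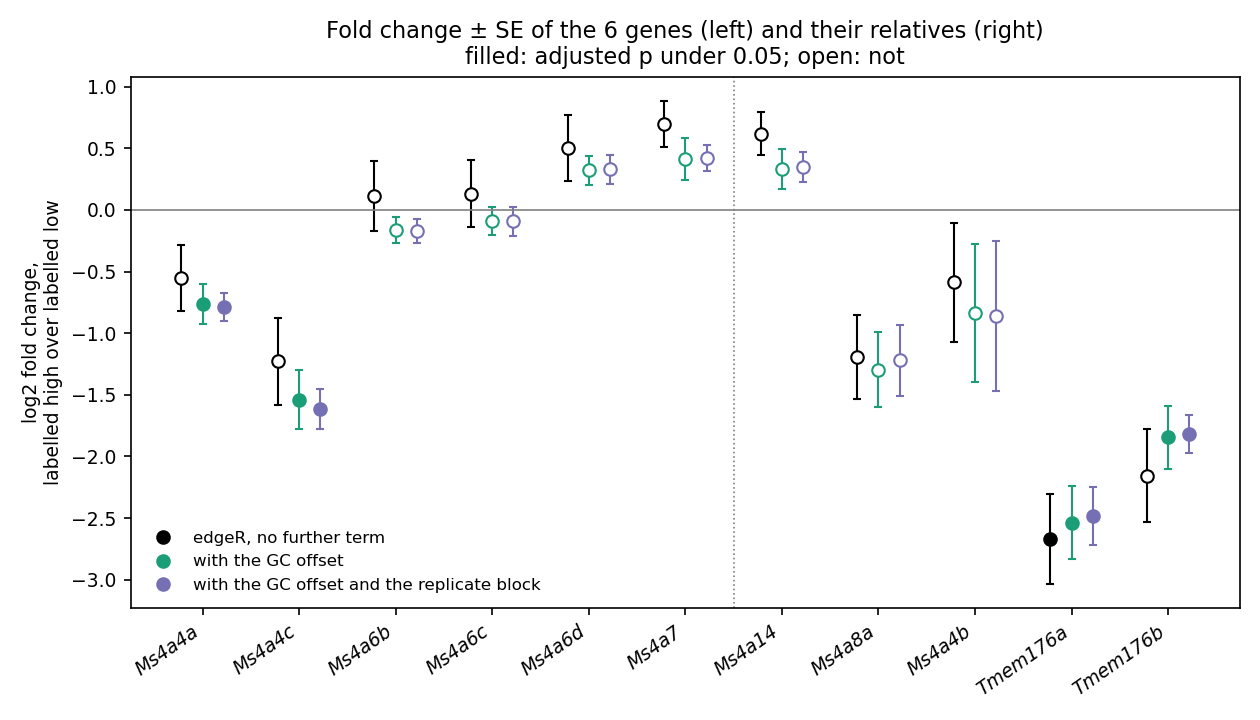
Log2 fold change of labelled high over labelled low (vertical axis) for the 6 genes, left of the dotted line, and 5 relatives, right of it. Bars are ± 1 standard error of edgeR and colours are 3 fits of the same counts, with filled points for an adjusted p under 0.05. Ms4a4c moves from -1.23 to -1.54 with the GC offset and is called there, while Ms4a7 moves from 0.70 to 0.42 and is not called in any of the 3 fits.

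The fold changes of the Ms4a4 genes and of Ms4a7 had opposite signs, so their ratio within a library, which needs no scaling between libraries, was also compared. Ms4a7 had 9.1, 4.94 and 6.23 reads for each read of Ms4a4a in the libraries labelled high. In those labelled low the ratio was 3, 2.24 and 3.11. All ratios labelled high were above all labelled low, and within batches 1, 2 and 3 the ratio was 3.04, 2.2 and 2 times as high in the library labelled high. For Ms4a7 over Ms4a4c the ratio was 63.2, 37.7 and 33.5 against 12.5, 8.58 and 12.9, which was 5.05, 4.4 and 2.59 times as high within batches. The ratios to the Ms4a6 genes overlapped between labels: for Ms4a6c they were 1.74, 1.16 and 1.45 against 0.933, 0.785 and 1.38. These ratios were picked with the fold changes in view and carry no test. With 3 libraries against 3 an exact permutation test cannot give a two-sided p below 0.1.

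The make-up of the MS4A signal was taken as reads per kilobase of exon (all exons of a gene joined) summed over the 6 genes. Ms4a4a held 10.9%, 14.9% and 14.4% of this sum in the libraries labelled high and 20.6%, 22.6% and 25.6% in those labelled low. Ms4a4c held 0.75%, 0.933% and 1.27% against 2.36%, 2.82% and 2.94%. Ms4a6d made up 40.2%, 37.2% and 35.5% against 31.7%, 31% and 26.2%. For these 3 genes the labels did not overlap, and this held under all 4 ways of measuring gene length that were tried. The 4 lengths rescale the same counts, so they are not separate support. No such share exists for genes outside the 6, but in CPM the labels did not overlap for 19.9% of all genes tested. The share of Ms4a7 was 18.6%, 13.9% and 16.8% against 11.6%, 9.51% and 15%, which overlapped, as did those of Ms4a6b and Ms4a6c. Shares sum to 100 in a library, so a higher share of some members lowers that of others. The 6 genes together came to 657, 705 and 840 CPM under the label high and to 591, 742 and 428 CPM under the label low, and overlapped.

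**Figure D3:**
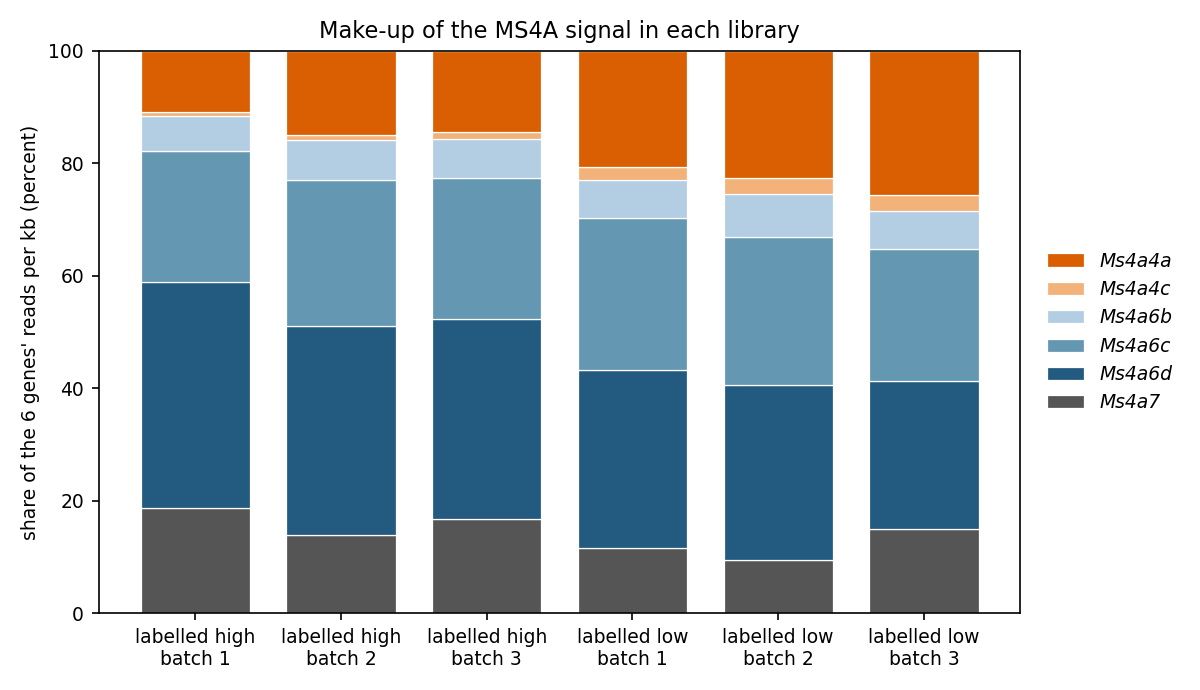
Share of each gene in the summed reads per kilobase of the 6 genes (vertical axis, percent; each bar adds up to 100) in the 6 libraries. The Ms4a4a segment takes 10.9% to 14.9% in the libraries labelled high and 20.6% to 25.6% in those labelled low, and the Ms4a6d segment 35.5% to 40.2% and 26.2% to 31.7%.

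Levels of different genes were compared per kilobase. With all exons joined, Ms4a6d led in the libraries labelled high at 118 ± 8.74 CPM per kilobase (SD, n = 3), above Ms4a6c at 78.7 ± 13.4. Ms4a7 at 51.7 ± 8.56 and Ms4a4a at 42.8 ± 11.4 followed and overlapped each other. Ms4a6b at 21.4 ± 4.04 and Ms4a4c at 3.19 ± 1.28 were the lowest. In the libraries labelled low, Ms4a6d at 83.3 ± 29.5, Ms4a6c at 71.6 ± 23.7 and Ms4a4a at 62.7 ± 15.8 overlapped as neighbours. Ms4a7 at 31.8 ± 2.17 was below Ms4a4a in 3 of 3 libraries without overlap, where in the libraries labelled high it was above Ms4a4a in 2 of 3. This order is turned by the length used, as given next. Ms4a6b at 19.8 ± 7.25 and Ms4a4c at 7.45 ± 2.26 came last again, each without overlap with the gene above it.

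The order, apart from its lowest places, depends on the length a gene is given. The joined exons of Ms4a7 measure 4453 bases, but its longest protein-coding transcript has 1576. On that shorter length Ms4a7 came to 146 ± 24.2 CPM per kilobase in the libraries labelled high, beside Ms4a6d at 145 ± 10.7, and to 89.9 ± 6.12 in those labelled low. There it was above Ms4a4a, at 83.5 to 95.6 against 50.5 to 80.5, again without overlap and opposite to the order on joined exons. With only 75-base stretches found in no other gene counted as length, Ms4a6c came first, at 156 ± 26.6 and 142 ± 47.1, since 47.7% of its stretches lie in BE692007. Ms4a4c was the lowest and Ms4a6b the fifth of the 6 under all 4 lengths and both labels.

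**Figure D4:**
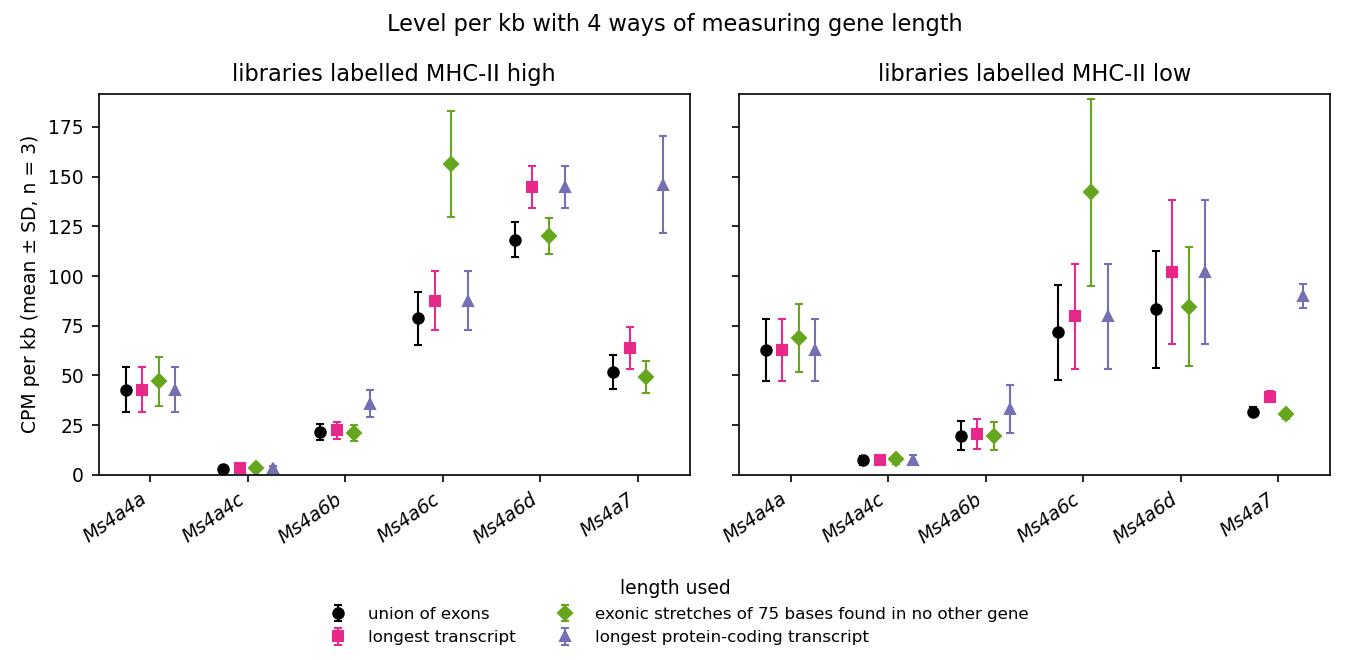
CPM per kilobase (vertical axis, from 0; mean ± SD of 3 libraries) of the 6 genes in the libraries labelled high (left) and low (right), with 4 ways of measuring gene length by marker. Ms4a7 reaches 146 on its longest protein-coding transcript and 51.7 on all its exons, while Ms4a4c stays the lowest throughout.

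Across the 6 libraries Ms4a6b and Ms4a6c had the most similar profiles of any pair among the 6 genes. Their log2 CPM, each centred on its own mean, differed by a root mean square of 0.0748. Ms4a4a and Ms4a4c differed by 0.379, and Ms4a4c and Ms4a7, the pair farthest apart, by 1.03. Genes outside the 6 were nearer to Ms4a6b (Tent2, 0.0312) and to Ms4a6c (Dcun1d5, 0.0312) than these were to each other. Any link of such profiles to promoter sequence was not tested. The regions before the starts of Ms4a6b and Ms4a6c share the longest identical run among the promoters compared, 48 bases. They are printed 5′ to 3′ on the plus strand as the 150 bases before each start site, with the shared run in capitals (RefSeq, GRCm38.p6).
Ms4a6b (chr19:11518409-11518558): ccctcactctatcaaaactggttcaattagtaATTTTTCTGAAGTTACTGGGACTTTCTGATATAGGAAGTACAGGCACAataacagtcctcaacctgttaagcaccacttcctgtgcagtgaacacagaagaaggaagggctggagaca
Ms4a6c (chr19:11469218-11469367): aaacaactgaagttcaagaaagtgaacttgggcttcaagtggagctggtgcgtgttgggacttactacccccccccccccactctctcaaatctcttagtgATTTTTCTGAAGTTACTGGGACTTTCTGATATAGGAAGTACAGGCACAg

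The run begins 118 bases before the start site in Ms4a6b and 49 bases before it in Ms4a6c, and a protein-coding GENCODE transcript of Ms4a6b starts inside its window. Over 300 bases, from 250 before to 50 after the start, the Ms4a6b and Ms4a6c promoters were identical over 51.2% of their alignment. Promoters of Ms4a4c and Ms4a4b matched over 72.1%, and no other pair passed 47.6%. RefSeq promoters were held for 5 of the 6 genes, not Ms4a6d. The letters GGAAGT, the core bound by ETS factors such as PU.1, were searched on both strands and occurred in the promoters of Ms4a7, Ms4a4c, Ms4a6c and Ms4a6b but not in that of Ms4a4a. They occur in 23.8% of all 32851 promoters of that length. The plus-strand matches of Ms4a6b and Ms4a6c are the same bases of the shared run printed above, and so are not separate finds. The longer PU.1 letters GAGGAAGT, which contain that core and are in 3.2% of promoters, were in none of the 5, nor were the C/EBP letters TTGCNNAA (10.8%) or the MAF letters TGCTGAC (4.67%). The interferon response letters GAAANNGAA (8.56%) occurred in Ms4a7, Ms4a6c and Ms4a6b and not in Ms4a4a or Ms4a4c, and with a further A at the end (3.44%) in none. The AP-1 letters TGANTCA (7.81%) occurred at a further start of Ms4a7. These are matches of letters, not bound sites.

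Of the genes outside the 6, those most like each were sought among 7528 protein-coding genes at 10 CPM or more, over the same 6 libraries and the same root mean square. Nearest to Ms4a7 were Spp1 (osteopontin) at 0.0697, Tceal9 at 0.0707 and Hpgds (a prostaglandin D synthase) at 0.0792. Spp1 stood at 1120, 1029 and 1452 CPM against 675, 776 and 699 CPM. Nearest to Ms4a4a were Emb (embigin) at 0.114, Sirpb1c at 0.135 and the lectin receptor gene Clec4a3 at 0.152. Nearest to Ms4a4c were Lpl (lipoprotein lipase) at 0.203, Cd24a at 0.208 and Pmaip1 at 0.235, all lower in the libraries labelled high without passing the test, as Lpl at 18.4, 31.4 and 39.4 CPM against 72.8, 73.2 and 54.2 CPM. The Ms4a6 genes had nearer neighbours. These were Tent2 at 0.0312 for Ms4a6b, Dcun1d5 at 0.0312 for Ms4a6c and Pikfyve at 0.0155 for Ms4a6d, all genes of general cell functions that were likewise lowest in the third library labelled low.

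The other genes of the family were mostly silent. The Ms4a cluster of chromosome 19 spans 35 annotated genes from 10962293 to 11640851, of which 16 had 10 or more reads and 10 had none. Of the 13 other genes named Ms4a, 4 had 10 or more reads over the 6 libraries, 4 had fewer and 5 had none. Ms4a14, beside Ms4a7 in the cluster, was as abundant as the main members, at 138, 158 and 180 CPM under the label high and 97.2, 112 and 101 CPM under the label low. It leaned the same way as Ms4a7 without overlap, with a log2 fold change of 0.62 and an SE of 0.17 (edgeR adjusted p = 0.246; with the GC offset a fold change of 0.33 and an adjusted p of 0.341). Ms4a8a stood at 3.17, 4.05 and 4.28 CPM against 13.1, 6.57 and 6.42 CPM, with a log2 fold change of -1.19 and an SE of 0.34 (edgeR adjusted p = 0.247, or 0.0692 with the GC offset).

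Genes of the family that mark other cells were near 0. Ms4a4b, the T cell gene that shares the printed run with Ms4a4c, had 63 reads in all, against 1107 for Ms4a4c. Ms4a1 (CD20) had 17, Ms4a2 had 2, and Ms4a3, of granulocyte and monocyte progenitors, had none. Tmem176a and Tmem176b, related genes of the same membrane topology outside the cluster and known from dendritic cells, had the largest fold changes of the family. Tmem176a stood at 5.39, 4.36 and 3.28 CPM against 34, 15.3 and 33.7 CPM and was the only relative called by edgeR without further terms, lower in the libraries labelled high by a log2 fold change of -2.67 with an SE of 0.36 (edgeR adjusted p = 0.0289). Tmem176b came to 12.7 ± 4.46 against 56.5 ± 22.3 CPM (SD, n = 3 each), with a log2 fold change of -2.16 and an SE of 0.38 (edgeR adjusted p = 0.0756, or 0.00973 with the GC offset).

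**Figure D5:**
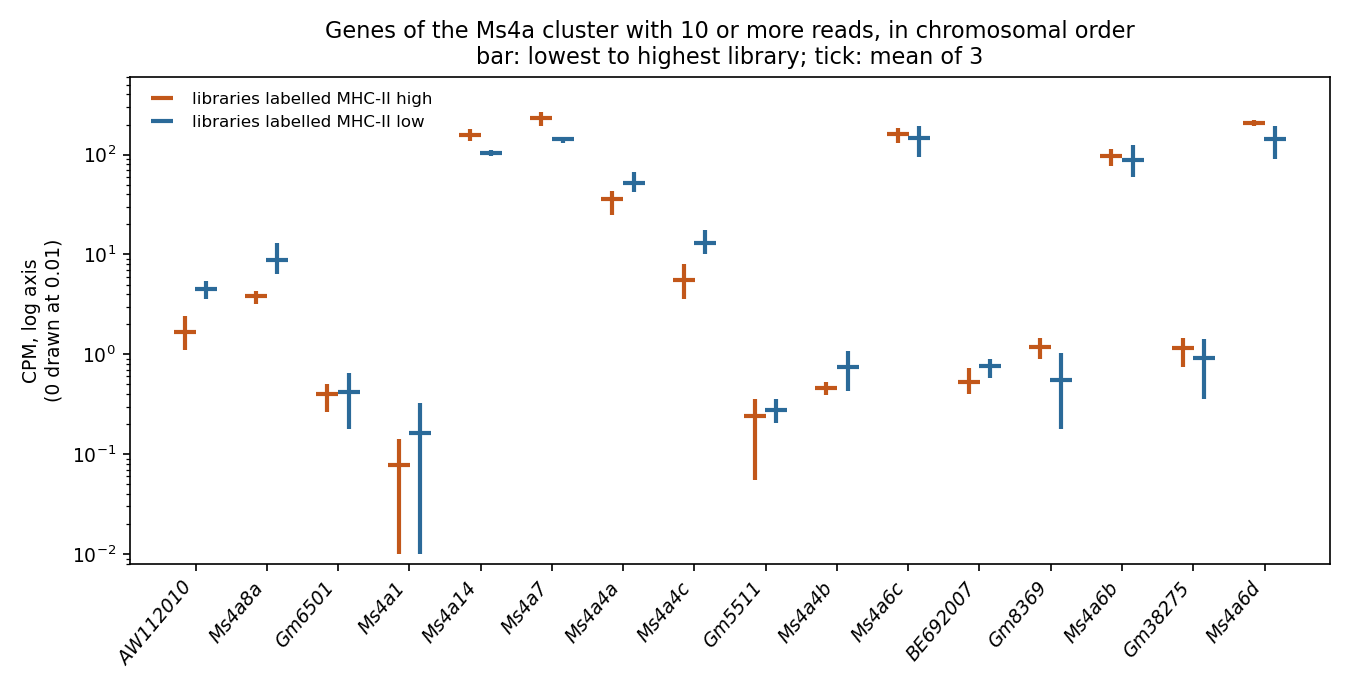
CPM on a log axis (0 drawn at 0.01) for the 16 genes of the Ms4a cluster with 10 or more reads, in chromosomal order. Bars run from the lowest to the highest library of a label and ticks are means of 3. The abundant genes, at 35.8 CPM or more in both labels, are Ms4a14, Ms4a7, Ms4a4a, Ms4a6c, Ms4a6b and Ms4a6d, and Ms4a4b and Ms4a1 lie near or below 1 CPM.

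The proteins that MS4A members work with showed no call. Of 14 genes of partners and their signalling, 12 were tested and 0 passed in either direction, with a median log2 fold change of -0.48 beside -0.02 over all genes tested. Clec7a (dectin-1) had a mean of 83.8 CPM under the label high and 137.5 CPM under the label low, a log2 fold change of -0.72 (edgeR adjusted p = 0.398). Fcer1g, the signalling chain of Fc receptors, ranged from 533 to 654 CPM against 782 to 1294 CPM (edgeR adjusted p = 0.314). With the GC offset 3 of the 12 were called, all lower in the libraries labelled high, where 1.48% of all genes were called in that direction: Clec7a (edgeR adjusted p = 0.0223), Kit (0.0215) and the signalling protease gene Malt1 (0.0201). Kit rests on 16 reads under the label high and 113 under the label low. Bcl10, Adam10 and Adam17 leaned the other way, with log2 fold changes of 0.49, 0.58 and 0.46 without the offset. The other tested genes of the list were below 0. Bcl10 had means of 34.8 and 24.8 CPM (edgeR adjusted p = 0.382, or 0.0655 with the GC offset).

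Macrophage maturation genes that accompany Ms4a7 and Ms4a4a in tissue macrophages gave 0 calls among 18 tested, with a median of -0.02. Folr2, a receptor of resident macrophages, had means of 142 and 88.1 CPM (log2 fold change 0.69, edgeR adjusted p = 0.314) and was called with the GC offset (0.0173). Apoe, a lipid carrier, leaned the other way with means of 600 and 1242 CPM (log2 fold change -1.05, edgeR adjusted p = 0.367). Its groups overlapped, at 500 to 790 CPM against 667 to 1867 CPM. With the GC offset the fold change of Apoe was -0.37 (edgeR adjusted p = 0.146). Of 20 interferon-response genes 0 were called, with a median of -0.23. Those with the smallest p were Ifi213, at 3.96 and 8.06 CPM (edgeR adjusted p = 0.194), Mx1, Oasl2 and Zbp1. All 4 had lower means in the libraries labelled high, as Ms4a4c did.

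Markers of other cell types were set beside these results. Dendritic cell markers summed to 56.5 to 102 CPM under the label high and 286 to 412 CPM under the label low. Most of this sum was Itgax, with means of 61.2 and 303.9 CPM. The next, Cd24a, had means of 9.3 and 18.9 CPM, so the sum mainly follows 1 gene. Of the 7 tested of 10, 3 were called lower in the libraries labelled high (Itgax, Ccr7 and Flt3), and none of the 10 was at 0 over all libraries. With the GC offset 5 of the 7 were called, all lower, where 1.48% of all genes were called in that direction. Monocyte markers summed to 662 to 683 against 1067 to 1536 CPM, with 0 of 8 tested called and Ms4a3 at 0. This sum was mainly Thbs1, with means of 329 and 588 CPM, and Ccr2, with means of 211 and 520 CPM. With the GC offset 2 of the 8 were called lower, Ccr2 (edgeR adjusted p = 0.00219) and F10 (0.00795). The 9 macrophage markers summed to 9732 to 11668 against 6599 to 11287 CPM, with 0 called. Lyz2 was the largest part of this sum, with means of 6447 and 3380 CPM. With the GC offset 2 of the 9 were called, both higher in the libraries labelled high, where 1.05% of all genes were. These were Lyz2 (edgeR adjusted p = 0.0132) and Adgre1 (0.0166), the latter with means of 343 and 184 CPM. B cell markers stayed at 2.22 to 2.89 against 6.82 to 13.2 CPM, and T and NK cell markers at 0.643 to 0.801 against 0.798 to 3.67 CPM, with Cd3e and Cd3d at 0. The B cell sum was mainly Ighm, with means of 1.43 and 6.86 CPM, called lower only with the GC offset (edgeR adjusted p = 0.0215). Markers of mast cells, basophils and eosinophils summed to 1.33 to 2.8 against 1.81 to 2.74 CPM, and those of neutrophils to 4.22 to 9.25 against 1.22 to 4.81 CPM, with Ly6g and Camp at 0. Those of fibroblasts, endothelium and epithelium summed to 30.7 to 89.2 against 62.6 to 121 CPM, with 1 of 7 tested called lower in the libraries labelled high, the adhesion gene Cdh1 (edgeR adjusted p = 0.018). The summed levels of dendritic cell, monocyte and B cell markers were thus lower in every library labelled high than in any labelled low, the direction of Ms4a4c and the Tmem176 genes, and their part in those values was not tested. Each of these sums mainly follows the few genes named with it above.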

How the data were processed

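Per the submitters' processing notes, the authors used STAR, HTSeq, Trimmomatic, FastQC and DESeq2 on GRCm38. Versions, annotation release, strand setting and read length: not given in the sources used here. Each library has 1 deposited table of read counts, not normalized, for 55487 Ensembl genes, followed by 5 summary lines. The summary lines stayed out of library sizes and tests: 35.2% to 49.4% of listed reads had no feature, 0.324% to 0.864% were ambiguous and 7.6% to 17.4% aligned to several places.

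Symbols, transcripts and coordinates came from GENCODE M21, which matched 55227 of the 55487 genes. Tests used edgeR 4.0.16 under R 4.3.3 (TMM factors, the default filter on low counts, quasi-likelihood test, Benjamini-Hochberg adjustment over 14140 genes, threshold 0.05). CPM were made from these deposited counts with library sizes scaled by TMM. The standard error of a fold change is its size divided by the square root of F. Fold changes are labelled high over labelled low. The fitting was first tested on simulated counts with known changes.

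The labels give the replicate number as a batch, which pairs the libraries. Deviations from the group means correlated at 0.153, 0.325 and -0.091 within batches 1, 2 and 3. Between libraries of different batches and labels they correlated at -0.461 to 0.320. The main fit has no batch term and the fit with it is an alternative. The others were DESeq2 1.42.0, limma-voom (limma 3.58.1), scaling by RLE or by total counts, no filter, at least 1 CPM in 3 libraries, removal of ribosomal and mitochondrial genes, a GC offset (local regression of CPM on the GC content of the longest transcript, span 0.4, degree 2) with and without the batch, and leaving out each library. Leaving out batch 3, a GC offset of degree 1 and the length of the longest protein-coding transcript were added after the data had been seen.

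Shared stretches were sought in the exons of all annotated transcripts, at 50, 75 and 100 bases. Promoter sequences came from RefSeq (GRCm38.p6) and matched 5 of the 6 genes by symbol; proteins were not used here. Named were the 6 genes, relatives with 10 or more reads, up to 4 genes of smallest p from each list at 1 CPM or more, and for each member the 3 most alike genes at 10 CPM or more. Ms4a2, Ms4a3, Malt1, Adam10, Adam17, Itgam, Ly6g, BE692007, Prdm11, Cd3e, Cd3d and Camp were named outside that rule. The members and lists were chosen with earlier results of these data known.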

Additional observations from a re-analysis of the deposited data

How the results depend on the processing

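The 6 fold changes were recomputed under 18 alternatives each, 108 values in all. Of these, 91 kept their direction and their side of the threshold, 6 gained a call, 0 lost one and 11 changed sign. Ms4a4a, Ms4a4c, Ms4a6d and Ms4a7 kept their direction in all 18. Against 0 of the 6 genes called lower in the libraries labelled high, 1 was called with no filter on low counts (Ms4a4c, -1.17), 2 with the GC offset (Ms4a4a -0.76, Ms4a4c -1.54), 2 with the GC offset and the replicate block (-0.79 and -1.62) and 1 with the GC offset of degree 1 (Ms4a4c, -1.54). Ms4a6b changed sign under the GC offset (-0.166), alike with the replicate block (-0.172) and at degree 1 (-0.163), and without batch 3 (-0.23). Leaving out single libraries moved it between -0.11, without the third labelled low, and 0.46, and it was also below 0 (-0.01) without the third labelled high. Ms4a6c changed sign under the GC offset (-0.092), alike with the replicate block (-0.093) and at degree 1 (-0.086), and without batch 3 (-0.21). Leaving out single libraries moved it between -0.10, without the third labelled low, and 0.40. The causes were not tested.

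The replicate block alone changed no call among the 6 genes, with adjusted p values from edgeR of 0.336 for Ms4a4c and 0.489 for Ms4a7. Over all genes it left 1 called higher and 40 lower, from 13 and 50. Genes called higher in the libraries labelled high numbered 8 with total counts, 108 with DESeq2, 113 with no filter, 148 with the GC offset of either degree, 230 with the offset and the block, 0 without batch 3, and 0 to 246 when leaving out 1 library. Those called lower numbered 266 with DESeq2, 436 with no filter, 209 with the GC offset, 208 with degree 1, 364 with the offset and the block, 28 without batch 3, and 8 to 784 when leaving out 1 library; 246 and 784 came without the second library labelled low. Total counts moved the median of all genes from -0.02 to 0.25 and turned no sign among the 6. Depth limits Ms4a4c most, with 57 reads in the third library labelled low.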
